A study of Homo sapiens with 47 samples.

Results

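Interferon-stimulated genes are the genes that cells switch on when they sense foreign nucleic acid or an interferon, and a delivered plasmid is a source of foreign DNA. The 9 genes described here, which belong to this response, are IFIT1, IFIT2, IFIT3, ISG15, MX1, OAS1, OAS3, IFI6 and IRF7. They were chosen by name, as 9 of the 19855 protein-coding genes of the GENCODE annotation on hg19, and the rule that lists them uses no measured value, although earlier results of these data were known when it was written. For each gene, peaks of histone H3 lysine 27 acetylation (H3K27ac, a mark of active promoters and enhancers) and of RNA polymerase II (RNAPII) were sought within 2 kb of any annotated transcription start and inside the gene body.

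All libraries came from Ishikawa cells, an endometrial adenocarcinoma cell line, grown in hormone-depleted medium and harvested 72 h after plasmid transfection. The plasmids encoded a catalytically dead Cas9 fused either to repeated VP16 activation domains, dCas9-VP16(10x), or to the catalytic core of the acetyltransferase p300, dCas9-p300(core), together with a tomato reporter and a pool of guide RNAs (gRNAs). The gRNA targets were 3 pools directed to estrogen receptor binding sites (Pool 1, Pool 2 and Pool 3), a pool directed to neighbouring regions without such a site (Adjacent), and the IL1RN promoter, which served as the control. With 5 gRNA targets and 2 replicates per group, each construct had 10 H3K27ac and 10 RNAPII libraries, and 7 libraries of the HA tag on dCas9 were also deposited. Every library, the IL1RN controls included, came from transfected cells that had passed drug selection for the plasmids. Transfected cells were therefore not compared with untransfected cells here, and a promoter state shared by all libraries cannot be told apart from the resting state of the line. The labels do not say whether replicates were separate cultures, so p-values measure the spread between these libraries, which may be technical.

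The pathway begins with sensors of cytosolic DNA or RNA, whose signal reaches the transcription factors IRF3 and IRF7 and leads to secreted interferon. Interferon receptors then activate transcription factors, IRF9 among them, that bind the interferon-stimulated response element (ISRE) in the promoters of the effector genes. Most effector genes are low in resting epithelial cells.

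The promoter sequences are shown first because the ISRE is the feature these genes share by function. The motif searched was GAAA, any 2 bases and GAAA again, or on the other strand TTTC, any 2 bases and TTTC, in the 160 bases before the canonical start of each gene. It was present in 6 of the 9 genes and in 341 of 19855 protein-coding genes (1.72%). The genes with a match were IFIT1, IFIT2, IFIT3, ISG15, OAS3 and IFI6. A match is a description of the letters and not evidence of binding. Stretches were taken from the hg19 genome on the strand of the gene, 5′ to 3′, outside annotated exons except for the 30-base stretches of OAS3 and MX1, which lie within them, and capitals mark the motif, whose copies can overlap.
IFIT1, chr10:91152220-91152302, plus strand: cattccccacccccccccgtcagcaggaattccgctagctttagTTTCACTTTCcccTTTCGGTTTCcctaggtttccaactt
IFIT2 before its canonical start, chr10:91061643-91061733, plus strand: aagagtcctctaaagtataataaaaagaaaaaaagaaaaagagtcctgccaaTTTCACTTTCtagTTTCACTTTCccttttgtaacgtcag
IFIT3, chr10:91087594-91087697, plus strand: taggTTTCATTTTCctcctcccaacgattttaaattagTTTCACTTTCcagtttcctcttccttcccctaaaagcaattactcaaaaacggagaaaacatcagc
ISG15 before its canonical start, chr1:948717-948876, plus strand: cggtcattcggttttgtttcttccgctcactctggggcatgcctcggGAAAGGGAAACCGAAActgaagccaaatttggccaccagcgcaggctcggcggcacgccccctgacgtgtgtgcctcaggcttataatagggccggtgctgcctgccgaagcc
IFI6, chr1:27998724-27998863, minus strand: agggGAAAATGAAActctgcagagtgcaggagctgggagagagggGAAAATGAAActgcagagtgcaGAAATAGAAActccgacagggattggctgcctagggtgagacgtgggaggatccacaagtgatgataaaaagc
OAS3, 30 bases around its first match, chr12:113376126-113376155, plus strand: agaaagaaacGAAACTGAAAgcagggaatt
The next 3 stretches lie before upstream starts, since the strongest peaks of these genes were found there and not at the canonical start.
MX1, 30 bases around the match before its upstream start, chr21:42792486-42792515, plus strand: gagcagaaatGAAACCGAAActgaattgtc
IFIT2 before its upstream start, chr10:91043291-91043392, plus strand: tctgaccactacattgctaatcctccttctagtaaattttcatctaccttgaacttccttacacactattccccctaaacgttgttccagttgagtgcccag
ISG15 before its upstream start, chr1:936358-936517, plus strand: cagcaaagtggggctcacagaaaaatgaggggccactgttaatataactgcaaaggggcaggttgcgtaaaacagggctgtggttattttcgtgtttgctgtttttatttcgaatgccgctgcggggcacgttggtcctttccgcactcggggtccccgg
The upstream windows of IFIT2 and ISG15 held no copy of the motif, and the upstream window of MX1 held 1 copy. The canonical windows of MX1, OAS1 and IRF7 held none.

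Peak lists differed in length, which sets how many promoters could be seen at all. The H3K27ac lists held 1805 to 32052 peaks and reached 4.91% to 66.8% of protein-coding promoters. The RNAPII lists held 16041 to 40757 peaks and reached 49.9% to 71.1%. The 7 H3K27ac lists of under 10000 peaks comprised 6 of dCas9-p300(core) and 1 of dCas9-VP16(10x). Peak names in some lists also carried a number, here called a run identifier. The sources used here do not state that it marks a sequencing run, so that reading is an assumption. The run block named below uses this identifier. In RNAPII all 10 p300(core) libraries carried 1 run identifier, 7 VP16(10x) libraries carried another and 3 carried none. Construct and identifier thus cannot be told apart there. The peak names of 1 H3K27ac library, labelled VP16(10x) Pool 1 replicate 2, carried the letter used for p300(core), and values that rest on it are also given without it. The label of the H3K27ac library VP16(10x) Adjacent replicate 1 names IL1RN gRNAs as well. All 7 epithelial markers had H3K27ac and RNAPII promoter peaks in at least 10 of 20 libraries. Of 7 measured immune, endothelial and stromal markers, 6 had none in any H3K27ac or RNAPII library.

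The 9 genes split into a group with no promoter peak and a group with peaks in 1 or more libraries. IFIT1, OAS1, OAS3 and IFI6 had no H3K27ac and no RNAPII promoter peak in any of the 20 libraries of either antibody. These are 4 of 9 genes, against 28.9% of all protein-coding genes with no H3K27ac promoter peak in any library and 25.8% with no RNAPII promoter peak. ISG15 and IRF7 had H3K27ac promoter peaks in at least 10 of the 20 libraries, 2 of 9 against 48.9% of all genes. ISG15, IRF7 and MX1 did so for RNAPII, 3 of 9 against 63.9% of all genes. These counts take a peak near any annotated start. Near their canonical starts IFIT2 and MX1 had no peak of either antibody. ISG15 had H3K27ac peaks there in 2 VP16(10x) libraries and 1 p300(core) library, and otherwise counts through an upstream region described below. A gene with many annotated starts has more sequence in which a peak can count. The start windows of the 9 genes covered 4.04 kb (IFI6) to 23.1 kb (MX1), against a median of 8.34 kb for all genes.

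**Figure D1:**
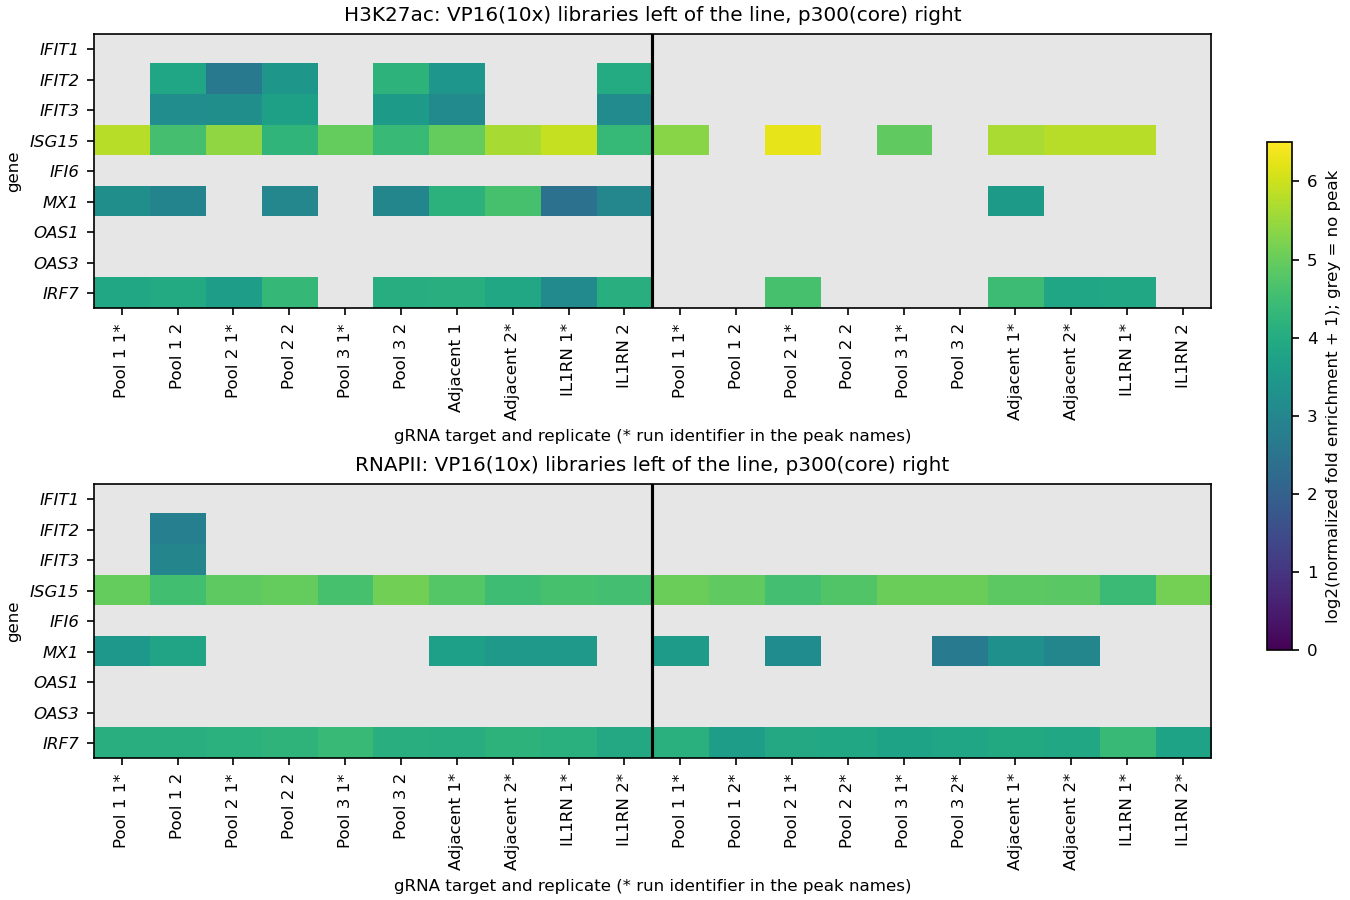
Promoter peaks of the 9 genes (rows) in each H3K27ac library (upper panel) and RNAPII library (lower panel), with VP16(10x) left of the line and p300(core) right, as log2(normalized fold enrichment + 1) in colour and grey for no peak; an asterisk marks a run identifier in the peak names. IFIT1, OAS1, OAS3 and IFI6 are grey throughout, IFIT2 and IFIT3 are coloured in 6 of 10 VP16(10x) and 0 of 10 p300(core) H3K27ac libraries, and ISG15 and IRF7 are coloured in all 20 RNAPII libraries.

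The 4 genes without promoter peaks are antiviral effectors. IFIT1 binds viral RNA that lacks the host cap modification, OAS1 and OAS3 make the short oligoadenylates that activate RNase L, and IFI6 is a small membrane protein induced by interferon. Measured from the canonical start, the closest H3K27ac peak of any library to IFIT1 lay 40.8 kb upstream, and the closest RNAPII peak 64.2 kb upstream, at IFIT3. OAS1 (chr12:113343661-113371024) and OAS3 (chr12:113375856-113414265) are neighbours on the plus strand. Their closest H3K27ac peak was the same peak at DTX1, 149.7 kb downstream of OAS1 and 118.2 kb downstream of OAS3. The closest RNAPII peak, also near DTX1, lay 184.0 kb from OAS1 and 152.5 kb from OAS3. For IFI6 (chr1:27992575-27998723, minus strand) the closest H3K27ac and RNAPII peaks lay 12.0 kb and 11.8 kb downstream of the start, outside the gene. An absent peak shows that no enrichment passed the caller's threshold in that library, not that signal was absent, and read counts were not used here.

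IFIT2 and IFIT3 encode members of the same RNA-binding antiviral family as IFIT1, and the 3 genes lie side by side on chromosome 10 (IFIT2 chr10:91043451-91069028, IFIT3 chr10:91087064-91137230, IFIT1 chr10:91152303-91166244, all on the plus strand). H3K27ac peaks at IFIT2 appeared in 6 of 10 VP16(10x) libraries, with enrichment over background of 8.27 in Adjacent replicate 1, 13.3 in IL1RN replicate 2, 14.2 in Pool 1 replicate 2, 4.37 in Pool 2 replicate 1, 11.9 in Pool 2 replicate 2 and 16.2 in Pool 3 replicate 2. The same 6 libraries had a peak at IFIT3, with enrichment of 6.40, 6.79, 8.65, 7.11, 14.4 and 9.85 in that order. No p300(core) library had an H3K27ac peak at either gene. The IL1RN control was among the 6, so the peaks were not limited to libraries with gRNAs to estrogen receptor binding sites. RNAPII peaks at both genes were called in a single library, VP16(10x) Pool 1 replicate 2, with enrichment of 4.74 at IFIT2 and 5.32 at IFIT3. H3K27ac promoter peaks in VP16(10x) libraries alone were also found at 6 of 39 other interferon-stimulated genes, and in p300(core) libraries alone at 2. The p300(core) H3K27ac lists reached 4.91% to 64.0% of promoters. The share of all genes with H3K27ac peaks in 1 construct alone was not counted.

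The peaks of the neighbouring genes differed in position. The IFIT2 peaks spanned chr10:91042459-91044301, around the most upstream annotated start, with a median summit 18.2 kb upstream of the canonical start. No peak reached within 2 kb of the canonical IFIT2 start, where the 2 ISRE-like copies printed above lie. Another annotated gene, ENSG00000232110, starts 53 bp from the median summit, so the peak cannot be assigned to IFIT2 alone. The IFIT3 peaks spanned chr10:91087377-91088519, with a median summit 82 bp downstream of the canonical start, and the span holds the stretch printed above. IFIT1 has 2 copies of the same motif and had no peak.

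**Figure D2:**
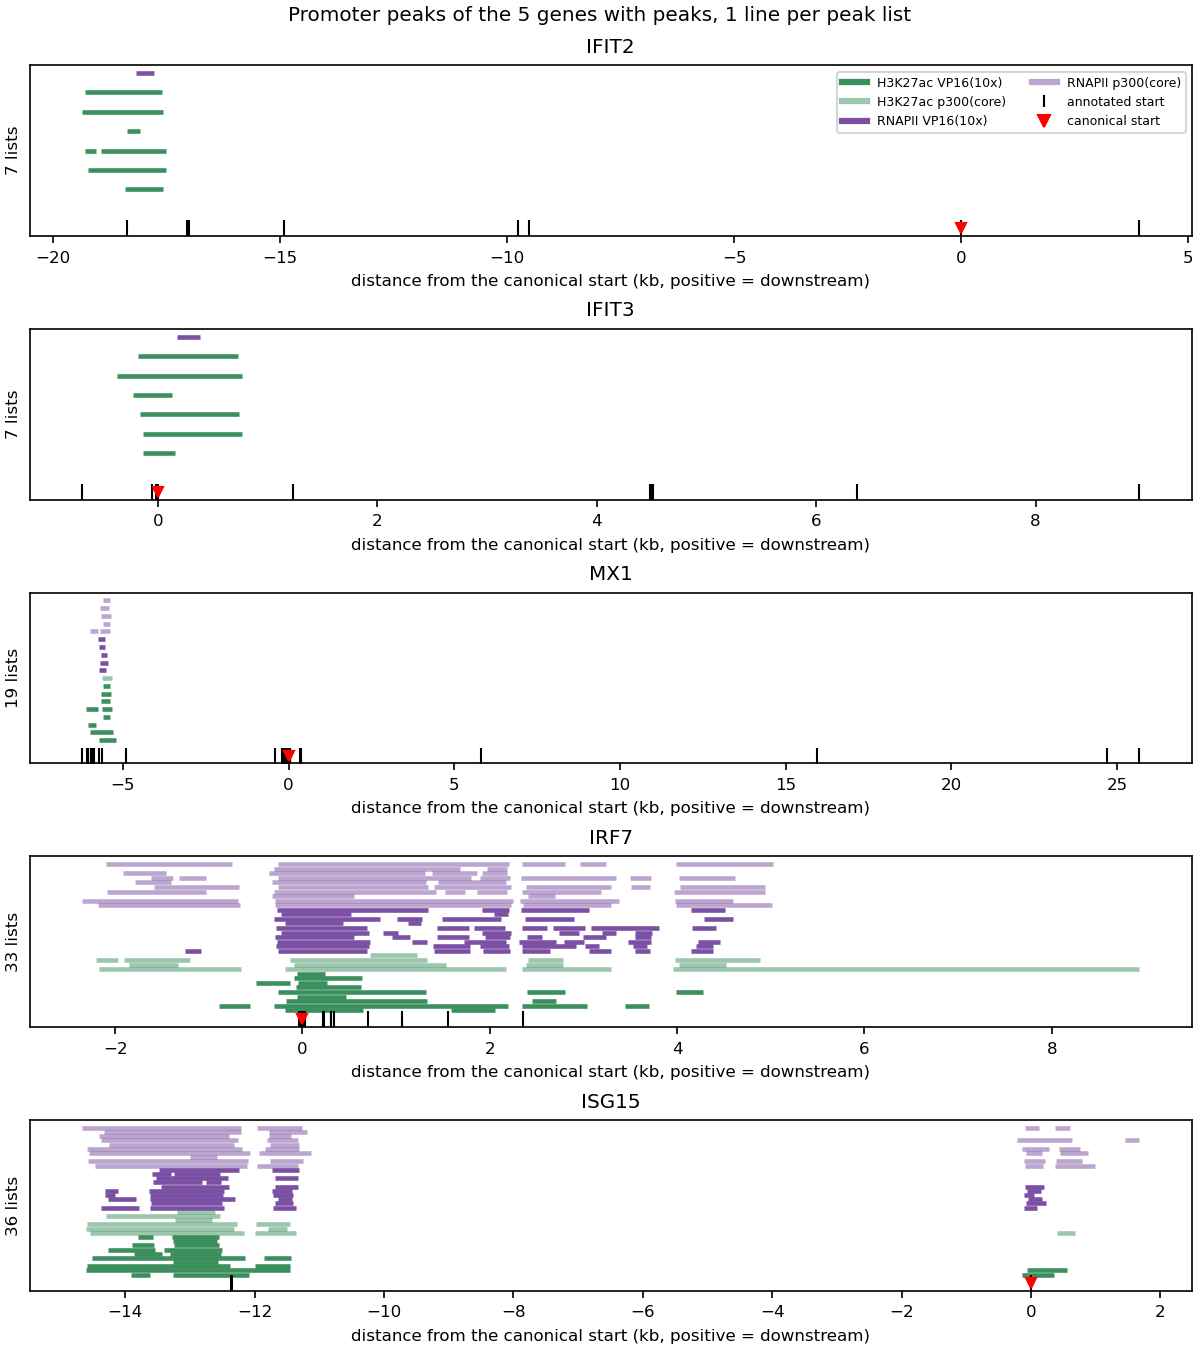
Extent of each promoter peak relative to the canonical start (x axis, kb, positive downstream in the direction of transcription), with 1 line of peaks per library, coloured by antibody and construct, and ticks at annotated starts. The IFIT3 peaks lie at the canonical start and the IRF7 peaks spread from it over the gene, whereas the main clusters of IFIT2, MX1 and ISG15 lie 18.2, 5.55 and 12.8 kb upstream.

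The IFIT2 and IFIT3 peaks followed the run identifier as well as the construct. All 5 VP16(10x) H3K27ac libraries without an identifier had both peaks, and 1 of the 5 with an identifier did. A pattern of this kind, in every library without an identifier and in at most 1 with one, was held by 282 protein-coding genes (1.42%), and the opposite pattern by 0 genes (0%). It was held by 1 of 39 other interferon-stimulated genes (IFITM1) and by 1 of 20 sensors and signal transducers (IRF9). This pattern was defined after the values were seen. The VP16(10x) lists without an identifier reached 51.5% to 61.0% of promoters and those with one 15.7% to 66.8%, so the ranges overlapped. The p300(core) lists without an identifier held 1805 to 4346 peaks and had no promoter peak at any of the 9 genes. The part of whatever the identifier marks in the IFIT2 and IFIT3 peaks was not tested.

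MX1 (chr21:42791947-42841998, plus strand), which encodes a dynamin-like GTPase that blocks viral ribonucleoproteins, was marked at an upstream start. In VP16(10x) libraries its H3K27ac enrichment ranged from 0 to 33.9 with a median of 7.87, and 8 of 10 libraries had a peak. In p300(core) libraries a single peak was found, at 19.2 in Adjacent replicate 1, and the other 9 libraries had none. The 2 constructs thus overlapped only through that library and the 2 VP16(10x) libraries without a peak, Pool 2 replicate 1 and Pool 3 replicate 1. RNAPII showed no such split. A peak was present in 5 of 10 VP16(10x) libraries, at 7.84 to 10.2, and in 5 of 10 p300(core) libraries, at 8.49 to 14.4. All of these peaks fell in chr21:42792069-42792973, with a median summit 5.55 kb upstream of the canonical start and 80 bp downstream of the start whose preceding bases hold the ISRE-like copy. No library had a peak within 2 kb of the canonical MX1 start.

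ISG15 (chr1:936518-949920, plus strand) encodes a ubiquitin-like protein that is conjugated to other proteins during the interferon response. It had the strongest promoter values of the 9 genes, and its mean over the 20 libraries lay above 98.9% of all genes for H3K27ac and 92.6% for RNAPII. H3K27ac enrichment with VP16(10x) had a low of 17.0, a median of 25.2 and a high of 149.9, with a peak in 10 of 10 libraries. With p300(core) the low was 0, the median 13.6 and the high 96.8, with a peak in 6 of 10. The 4 p300(core) libraries at 0 were those without a run identifier, and the other 6 lay within the VP16(10x) range or below it. These high values belong to a peak region at chr1:934215-937744, 12.8 kb upstream of the canonical ISG15 start. It counts for ISG15 through an annotated upstream start, but its median summit lay 589 bp from the start of HES4, a transcriptional repressor of the Notch pathway, so this signal cannot be assigned to ISG15.

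At the canonical ISG15 start, where the motif copies lie, peaks were fewer and weaker. H3K27ac peaks there were called in 2 VP16(10x) libraries, Adjacent replicates 1 and 2, at 8.29 and 16.0, and in 1 p300(core) library, Adjacent replicate 1, at 7.77. RNAPII peaks there were called in 6 of 10 VP16(10x) libraries at 4.80 to 10.3 and in 6 of 10 p300(core) libraries at 7.43 to 17.1. All 3 H3K27ac peaks at the canonical start came from the 4 libraries labelled Adjacent, a grouping noticed in the values and not tested.

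IRF7 encodes the transcription factor that amplifies type I interferon production and is itself induced by interferon. It had an RNAPII peak at its promoter in all 20 libraries. ISG15 also had one within 2 kb of a start in all 20, but through the region beside HES4. At the canonical ISG15 start an RNAPII peak was called in 6 of 10 libraries of each construct. For IRF7, the values were as follows. RNAPII enrichment with VP16(10x) ranged from 8.08 to 14.5 with a median of 12.5, and with p300(core) from 9.56 to 23.2 with a median of 19.6, so the groups overlapped. H3K27ac peaks were found in 9 of 10 VP16(10x) libraries, with a low of 0, a median of 15.1 and a high of 25.5, and in 4 of 10 p300(core) libraries, with a median of 0 and a high of 37.3. The 1 VP16(10x) library without a peak, Pool 3 replicate 1, held the shortest of the VP16(10x) lists (5322 peaks). The p300(core) libraries without a peak were the 6 with lists of under 10000 peaks (1805 to 6687). Those with a peak held 10532 to 24280. The part of list length in these H3K27ac values was not tested. The strongest cluster of IRF7 peaks by number of libraries lay at the canonical start (median summit 93 bp downstream), and further peaks continued over the short gene, which spans 3.43 kb at chr11:612553-615983 on the minus strand.

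Inside gene bodies, IRF7 was the gene with the widest coverage. RNAPII peaks covered 17.9% to 69.4% of its length with VP16(10x) (median 57.1%) and 25.4% to 97.4% with p300(core) (median 84.7%). H3K27ac peaks covered up to 85.1% with VP16(10x) and 92.4% with p300(core). In IFIT2, IFIT3 and MX1, H3K27ac and RNAPII peaks covered at most 3.33% of the body. In ISG15 they covered up to 23.9%, a span that holds the intergenic stretch between its upstream and canonical starts. IFIT1, OAS1, OAS3 and IFI6 had no H3K27ac or RNAPII peak in the body either.

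**Figure D3:**
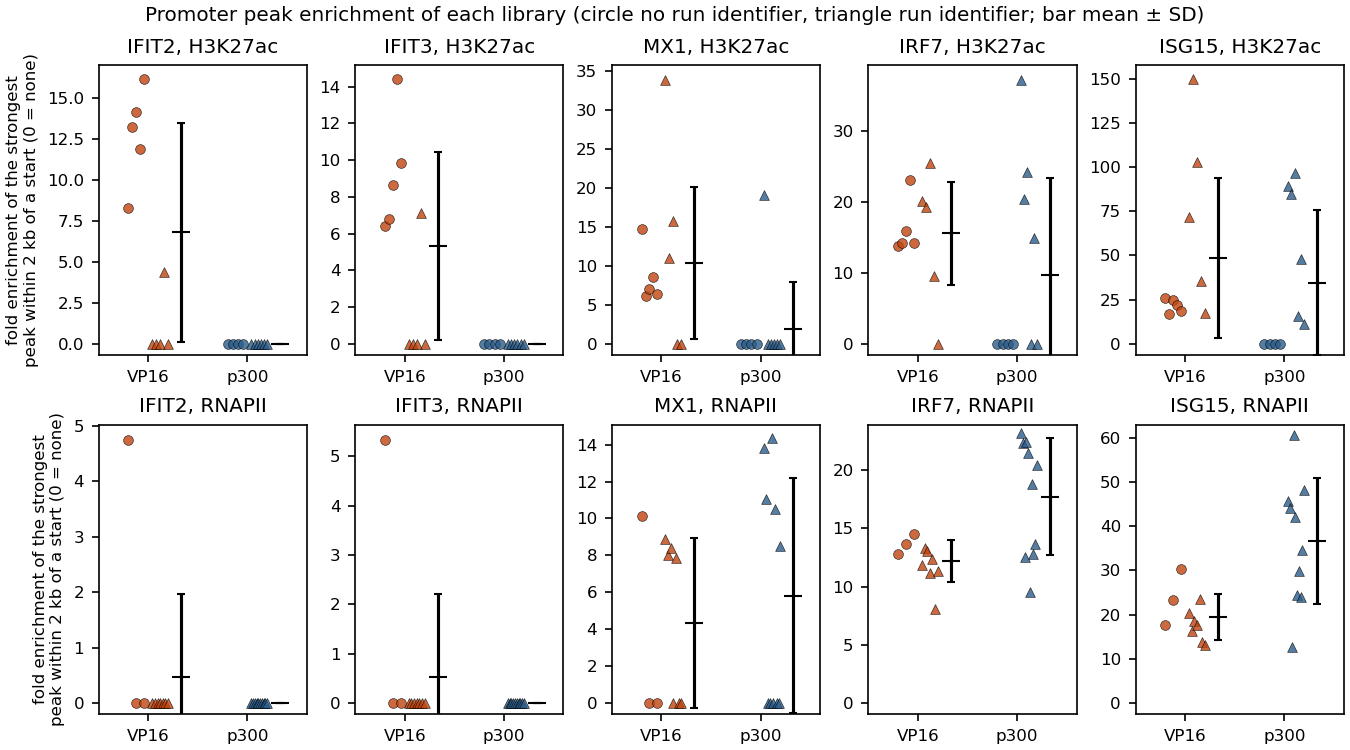
Fold enrichment of the strongest promoter peak (y axis, 0 for none) of the 5 genes with peaks, 1 point per library, for H3K27ac (upper row) and RNAPII (lower row), with circles for libraries without a run identifier, triangles for those with one, and bars for the mean ± SD, cut off at the lower edge of the panel. In H3K27ac the p300(core) points of IFIT2 and IFIT3 are all at 0, whereas the RNAPII points of ISG15 and IRF7 are above 0 in every library.

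The construct comparison asked whether promoter signal at these genes differed between dCas9-VP16(10x) and dCas9-p300(core). It used the strongest promoter peak of each gene (0 where none), divided by the library's mean enrichment over the promoters that had a peak in every library, on the log2(value + 1) scale, with gRNA target as a covariate. Of 13673 genes tested for H3K27ac, 45.2% were higher with VP16(10x) and 0.00731% lower (limma, adjusted p under 0.05), and the median difference of all genes tested was 1.63. The difference was positive at 90.95% of the genes tested. Of the 9 genes, 5 could be tested. IFIT2 and IFIT3 had peaks with VP16(10x) alone, and MX1 had 1 p300(core) peak, short of the 2 libraries with a peak that the test required. IFIT2, IFIT3 and MX1 thus entered through their VP16(10x) peaks. Their differences are given as a description with no p, and the number called is no evidence about the genes.

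H3K27ac was higher with VP16(10x) at IRF7 by 1.83 (SE 0.68, adjusted p = 0.0353 by limma). The difference was 2.28 (SE 0.54) at MX1, with 1 p300(core) library above 0. It was 2.15 (SE 0.65) at IFIT2 and 1.99 (SE 0.59) at IFIT3, where all p300(core) libraries were at 0. The difference at ISG15 was 1.66 (SE 0.89, adjusted p = 0.125) and did not pass. All 5 stood against the median of 1.63 over all genes. Under quantile normalization, which equalizes the libraries' distributions, the median of all genes fell to 0.45 and none of the 9 genes passed (MX1 0.70, IFIT2 0.74, IFIT3 0.47, IRF7 0.51). Without the library whose peak names went against its label, the differences were 2.24 at MX1, 1.89 at IFIT2, 1.79 at IFIT3 and 1.67 at IRF7 (adjusted p = 0.0716 by limma).

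The values diverged between libraries with and without a run identifier in their peak names, and whether the libraries without one were sequenced together is not stated. Libraries without a run identifier numbered 5 of VP16(10x) and 4 of p300(core). Their differences were 3.37 at IFIT2, 2.90 at IFIT3, 2.51 at MX1, 3.60 at IRF7 and 3.88 at ISG15, beside a median of all genes of 3.02. No p300(core) library among them had a promoter peak at these genes, so the differences are descriptions. All of these p300(core) lists were short. Among libraries with an identifier (5 and 6) the differences were 1.90 at MX1, 0.39 at IRF7 (adjusted p = 0.768 by limma) and -0.08 at ISG15 (adjusted p = 0.922), beside a median of 0.80. IFIT2 and IFIT3 could not be tested there, with a peak in 1 library. Without the 7 lists of under 10000 peaks, the differences were 2.60 at IFIT2, 2.53 at IFIT3, 2.69 at MX1, -0.10 at IRF7 (adjusted p = 0.858 by limma) and -0.56 at ISG15 (adjusted p = 0.307), beside a median of 0.33. None of these passed. The 4 p300(core) lists left all carried a run identifier and 5 of the 9 VP16(10x) lists left did not, so among the longer lists construct and identifier are again partly confounded.

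In RNAPII, 9.04% of 14465 genes were higher and 11.7% lower with VP16(10x), with a median difference of -0.07. None of the 3 genes tested passed. The differences were -0.11 at ISG15 (SE 0.11, adjusted p = 0.497 by limma), 0.23 at MX1 (SE 0.65, adjusted p = 0.824) and 0.22 at IRF7 (SE 0.10, adjusted p = 0.119). The enrichment as deposited ran lower with VP16(10x). At ISG15 the mean was 19.4 ± 5.15 (SD, n = 10) with VP16(10x) and 36.6 ± 14.2 (SD, n = 10) with p300(core), and at IRF7 it was 12.2 ± 1.79 (SD, n = 10) and 17.7 ± 5.05 (SD, n = 10). The median of all genes was also lower, at -0.74, without the division by shared promoters. On that scale 8540 of the 14465 genes were lower with VP16(10x) and 229 higher. ISG15 (-0.81, adjusted p = 0.0139 by limma) and IRF7 (-0.46, adjusted p = 0.0356) were among those lower, against that median of all genes. The ISG15 values belong to the region beside the start of HES4.

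**Figure D4:**
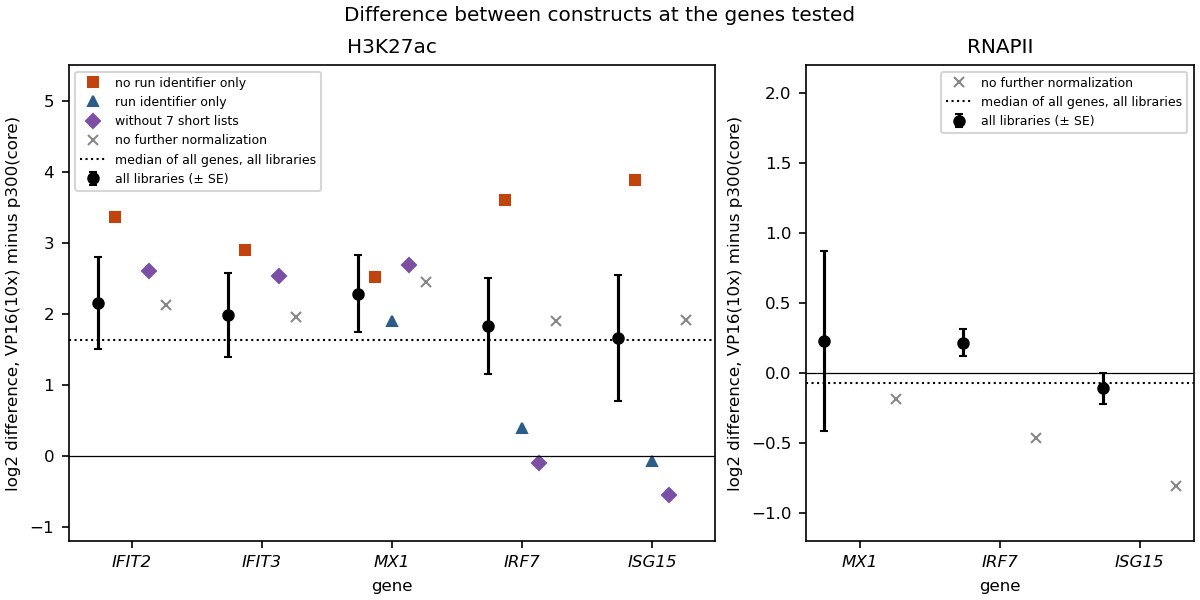
Difference between constructs, VP16(10x) minus p300(core), on the log2(normalized enrichment + 1) scale (y axis) for the genes tested, with black points and SE bars for all libraries, coloured points for H3K27ac subsets by run identifier and without the 7 short lists, crosses for no further normalization, and a dotted line at the median of all genes. The black H3K27ac points lie between 1.66 and 2.28 and the black RNAPII points between -0.11 and 0.23, while the subset points of IRF7 and ISG15 range from -0.56 to 3.88.

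The gRNA comparison asked whether any of the 4 other pools differed from the IL1RN control within a construct. By limma's F test, the share of genes called for H3K27ac was 0% with VP16(10x) and 0.0219% with p300(core), and for RNAPII 0.442% and 0.0415%. At an unadjusted p under 0.05 there were 789 and 3379 genes for H3K27ac and 745 and 198 for RNAPII. None of the 9 genes was called in any of the 4 tests. MX1 differed in RNAPII peak presence between targets and between replicates. With VP16(10x) it had a peak in both Adjacent replicates (8.91 and 8.04), in both Pool 1 replicates (7.84 and 10.2) and in IL1RN replicate 1 (8.41), and none in the other IL1RN replicate or in Pool 2 or Pool 3. With p300(core) it had a peak in both Adjacent replicates (13.8 and 11.1), in 1 replicate each of Pool 1, Pool 2 and Pool 3, and in neither IL1RN replicate. The adjusted p of the VP16(10x) test was 0.908 by limma. VP16(10x) libraries with the MX1 peak held lists of 29987 to 35592 peaks. Those of Pool 2 and Pool 3 held 16041 to 22628, and IL1RN replicate 2, also without it, 33212. With p300(core) the lists held 26449 to 40757 peaks where MX1 had one and 18809 to 27078 where it had none. The part of list length in this pattern was not tested. Replicates of a single target often differed by the presence of the peak itself. At IRF7 with p300(core), H3K27ac was 24.3 in IL1RN replicate 1 (a list of 18664 peaks) and 0 in replicate 2 (4088 peaks). With 2 replicates, such a spread limits what the test of targets can detect.

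The number of the 9 genes with a promoter peak was 1 to 5 per library for H3K27ac with VP16(10x), 0 to 3 with p300(core), 2 to 5 for RNAPII with VP16(10x) and 2 to 3 with p300(core). These numbers stand beside the share of all promoters that carried a peak. The 5 H3K27ac libraries with 5 of the 9 genes reached 51.5% to 61.0% of promoters. VP16(10x) Adjacent replicate 2 reached 66.8% and had 3 of the 9 genes. The p300(core) library with the longest list, Adjacent replicate 1, reached 64.0% and also had 3, ISG15, MX1 and IRF7.

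**Figure D5:**
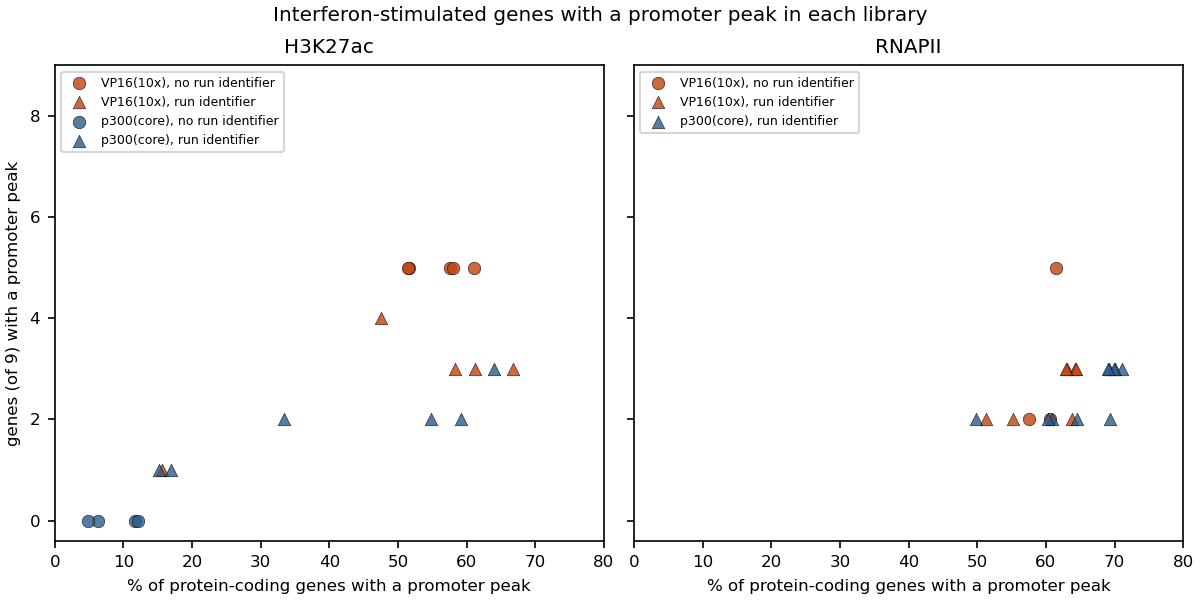
Number of the 9 genes with a promoter peak (y axis) against the percent of all protein-coding genes with a promoter peak (x axis), 1 point per H3K27ac or RNAPII library. H3K27ac libraries of VP16(10x) without a run identifier have 5 genes each, and no p300(core) library has more than 3.

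Other genes of the pathway were taken as lists. Of 39 other interferon-stimulated genes, 19 had no H3K27ac promoter peak in any library and 20 no RNAPII promoter peak. Of the 17 tested for H3K27ac, 4 were higher with VP16(10x), against 45.2% of all genes, 0 were lower, and the median difference was 1.21, against 1.63 over all genes. These were EIF2AK2, the kinase PKR that senses double-stranded RNA (2.31, SE 0.62, adjusted p = 0.00841 by limma), PLSCR1 (2.21, SE 0.61), IFITM1, which restricts viral entry (2.08, SE 0.62, a peak in 6 VP16(10x) and 0 p300(core) libraries), and USP18, which removes ISG15 from proteins (1.98, SE 0.62). IFITM1, and also IFITM2, IFITM3, BST2 and DDX60 among those not passing, entered the test through VP16(10x) alone. The number of 4 and the median are thus no evidence about the list. ADAR, IRF1 and LGALS3BP had the highest mean H3K27ac enrichment of the list, 32.8, 21.3 and 17.8, and none of these 3 passed. In RNAPII 7 of 17 were lower with VP16(10x), against 11.7% of all genes, 1 was higher, and the median was -0.65, against -0.07 over all genes. Most of the 7 reached the 2 libraries that the test required through p300(core) alone, so their number is no evidence about the list. UBE2L6, the conjugating enzyme for ISG15, had an RNAPII peak in 0 VP16(10x) and 7 p300(core) libraries (-2.17, SE 0.49). PSMB9 and TAP1, which share a promoter and serve antigen processing, had one in 0 and 6 (-1.73, SE 0.45). CMPK2 and RSAD2, which also share a promoter peak, had one in 1 and 7 libraries (-2.20, SE 0.66), so that the 7 genes stand for fewer separate promoters. IRF1 had one in all 20 (-0.40, SE 0.11). The difference in run identifier named above applies to each of these RNAPII values.

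Of 20 sensors and signal transducers, 7 of the 12 tested were higher in H3K27ac with VP16(10x), against 45.2% of all genes, and 0 were lower, with a median of 2.01 against 1.63. They included TYK2 (2.53, SE 0.59), IFNAR1 (2.48, SE 0.66), the RNA sensor DDX58, also called RIG-I (2.37, SE 0.57, a peak in 7 VP16(10x) and 0 p300(core) libraries), and IRF9 (1.95, SE 0.60, 6 and 0). DDX58 and IRF9 entered the test through VP16(10x) alone, so the number of 7 and the median are no evidence about the list. None of the 12 tested in RNAPII passed in either direction. The 10 interferons and interferon-induced chemokines, IFNB1, CXCL10 and CCL5 among them, had no promoter peak of either antibody in any library. Of 10 NF-kB target genes, 2 of the 4 tested for H3K27ac passed, NFKBIA (2.01, SE 0.80) and TNFAIP3 (1.78, SE 0.67), and in RNAPII 1 of 6 did, ICAM1 (-1.35, SE 0.44). The study's 4 control promoters, CTCF, TBP, SF3B4 and TRIM28, had peaks in at least 10 of 20 libraries of each antibody, and none passed. Among the 7 epithelial markers 3 were higher in H3K27ac (CLDN3, KRT19 and CDH1), so the sign of the difference was shared by genes outside the interferon pathway. Genes of these lists with a peak in 0 libraries of a construct (IFITM1, DDX58 and IRF9 in H3K27ac, and UBE2L6, PSMB9, TAP1 and ICAM1 in RNAPII) entered the test through the other construct alone, so their differences are descriptions. The same holds for CMPK2 and RSAD2, whose RNAPII peak in 1 VP16(10x) library fell short of the 2 libraries required. Among the called H3K27ac genes named from the lists, IFNAR1 alone still passed under quantile normalization (limma). With 1 library left out, NFKBIA passed in 7 of 20 fits and TNFAIP3 in 10 for H3K27ac, and ICAM1 in 6 for RNAPII.

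The genes whose normalized H3K27ac enrichment most resembled the mean of the 5 genes tested over the 20 libraries were KLC4 and an overlapping gene, ENSG00000288564 (Pearson's r = 0.953), and NAT9 (r = 0.951). Each had a peak in 9 VP16(10x) and 4 p300(core) libraries, as IRF7 did. The 5 genes themselves correlated with that mean at 0.883 (IRF7), 0.766 (MX1), 0.761 (IFIT2), 0.755 (IFIT3) and 0.655 (ISG15). In RNAPII the mean followed MX1 (r = 0.991), and SAMD12 (0.852), BIRC3 (0.841) and INCENP (0.840) were closest. These correlations are descriptions over libraries that share list length and run identifier.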

How the data were processed

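Chromatin immunoprecipitation sequencing of H3K27ac (20 libraries), RNAPII (20) and HA (7) was analysed from the peak lists deposited by the authors. The authors aligned reads to hg19 and called peaks in each library on its own. The submitters' processing notes name Bowtie 1.1.2, SAMtools, bedtools and MACS2 2.1.0.20140616. The background library of the peak caller is not given in the sources used here. The authors' lists give each peak's fold enrichment over background as a ratio, and its -log10 p and -log10 q. The lowest deposited -log10 p was 10.0. The lists hold 959683 peaks in all. They give no read counts, so sequencing depth is unknown and the number of peaks stands beside each value. A deposited table of normalized signal over 23 regions (47 value columns, unit signal as the authors made it) was not used, since its closest region lay 5530 kb from any of the genes.

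Peaks overlapping 2 kb on either side of any start of each protein-coding gene (GENCODE 44 lifted to hg19) were assigned to it with Python 3.11.15, and the strongest was kept. Enrichment was divided by the library mean over promoters with a peak in every library (480 for H3K27ac, 8838 for RNAPII), and log2(value + 1) was fitted with limma 3.58.1 (R 4.3.3) over genes with a peak in at least 2 libraries, with Benjamini-Hochberg adjustment over all of them. On simulated data, 21% of genes changed by log2 2 and 86% changed by log2 4 were recovered in the H3K27ac construct comparison (13673 genes), and 81% and 96% in that of RNAPII (14465 genes). The 9 genes, the lists and the tests were chosen with earlier results of these data known. Named genes were all 9, up to 5 called genes of each list by adjusted p, the 3 of highest mean enrichment of each list, and the 3 most alike over 500 kb away. Some genes that meet this rule are not reported here. PECAM1, an immune, endothelial and stromal marker, was not matched in the annotation. Same-numbered replicates were not treated as pairs, since the correlation of their deviations ranged from -0.46 to 0.76 in H3K27ac and from -0.47 to 0.59 in RNAPII. Alternatives covered normalization, pseudocount, filters, window, peak threshold, blocks, weights and left-out libraries. The alternatives with canonical starts only, by run identifier, without the shortest lists and with 1 pair of RNAPII libraries counted as 1 were chosen after seeing the data.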

Additional observations from a re-analysis of the deposited data

Results flagged for a closer look

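Among 16 groups of 10 libraries checked by Dixon's criterion at the 95% level, 5 held a library far from the others, and for values without ties chance gives about 1 in 20. In 3 of the 5, at IFIT2, IFIT3 and MX1, a single peak stood among 9 values of 0, where the criterion is met by construction and that rate does not apply. In RNAPII with VP16(10x), Pool 1 replicate 2 was the single library with a peak at IFIT2 (4.74) and at IFIT3 (5.32). In H3K27ac with p300(core), Adjacent replicate 1 was the single library with a peak at MX1 (19.2). In H3K27ac with VP16(10x), MX1 was highest in Adjacent replicate 2 (33.9, the next library 15.8). In RNAPII with VP16(10x), IRF7 was lowest in Pool 2 replicate 1 (8.08, the next library 11.1), which also held the shortest RNAPII list (16041 peaks).

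The HA libraries, outside the comparisons, also had promoter peaks at 3 of the 9 genes above the level of the VP16(10x) IL1RN control. ISG15 reached 28.3 in Adjacent replicate 2 and 19.8 in the estrogen receptor site pool (ERBS) replicate 2, against 9.59 in the control. The values of 28.3 and 19.8 lie at the upstream start beside HES4 and cannot be assigned to ISG15. At its canonical start 2 of 5 VP16(10x) HA libraries had a peak, at up to 13.8. MX1 reached 16.5 in Adjacent replicate 2 and 7.93 in ERBS replicate 2, and the control had no peak. IRF7 reached 8.69 in ERBS replicate 1, 12.6 in Adjacent replicate 2 and 44.7 in ERBS replicate 2, against 8.50 in the control. Elsewhere the HA libraries of VP16(10x) did not exceed the control, with ISG15 at 7.71 in Adjacent replicate 1 and 8.64 in ERBS replicate 1, no IRF7 peak in Adjacent replicate 1 and no MX1 peak in either. The 2 libraries with the largest values held 25109 and 30740 peaks, against 8149 in the control, and reached 68.9% and 70.4% of promoters, against 35.0%. The part of list length in these values was not tested. The 2 HA libraries of p300(core) held 154 and 141 peaks and none at the 9 genes.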

How the results depend on the processing

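For H3K27ac, the number of genes higher with VP16(10x), 6177, became 581 under quantile normalization, 4016 without a filter, 0 among libraries with a run identifier and 15 without the 7 lists of under 10000 peaks, and 4187 to 7973 with 1 library left out. The number lower, 1, became 127 under quantile normalization, 2 with a pseudocount of 0.5, at -log10 q of at least 20, with the replicate block and with the run block, 22 among libraries without a run identifier, 5 without the 7 lists, and 0 with a pseudocount of 4, no filter, a minimum of 10 libraries, a 5 kb window or libraries with an identifier, and 0 to 4 with 1 library left out. Of the 9 genes, 4 were called, against 0 under quantile normalization, with a run identifier or without the 7 lists, 1 with a minimum of 10 libraries, 2 at canonical starts, 5 among libraries without an identifier, and 3 to 5 with 1 library left out. Beside them, 45.2% of all genes were higher in the main fit and 8141 of 11656 among libraries without an identifier. The 4 include IFIT2, IFIT3 and MX1, which entered through VP16(10x), so these counts are no evidence about the genes. With 1 library left out, IRF7 stayed called in 10 of 20 fits (1.53 to 2.18). As descriptions, the differences in these fits were 1.98 to 2.57 at MX1, 1.858 to 2.475 at IFIT2 and 1.75 to 2.27 at IFIT3. IRF7 missed the threshold without any one of p300(core) IL1RN replicate 2, Pool 1 replicates 1 and 2, Pool 2 replicate 2 and Pool 3 replicate 2, and of VP16(10x) IL1RN replicate 2, Pool 1 replicates 1 and 2, Pool 2 replicate 2 and Pool 3 replicate 2, and ISG15 passed without p300(core) Pool 2 replicate 1 (2.11, adjusted p = 0.0451 by limma). IRF7 also missed the threshold with a pseudocount of 4 (adjusted p = 0.0542 by limma) and without a filter (adjusted p = 0.0788). At -log10 q of at least 20 the difference at MX1 was 1.40 and its call was lost. The difference turned negative at ISG15 (-0.079 with a run identifier, -0.56 without the 7 lists), IRF7 (-0.10) and CLDN3 (-0.35, both without the 7 lists), and ISG15 passed with the run block (1.97, adjusted p = 0.0122). Of the 9 genes, those with a peak in at least 10 of 20 libraries, 2, became 1 at canonical starts and 5 (in at least 50% of libraries) among libraries without an identifier.

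The H3K27ac gRNA test called 0 genes with VP16(10x), 105 without a filter, 208 with array weights and 0 to 155 with 1 library left out (155 without p300(core) IL1RN replicate 2). With p300(core) it called 3, and 16 with a pseudocount of 0.5, 33 without a filter, 15 in a 1 kb window, 9 with the run block, 7827 with array weights (1 of the 9 genes), 0 to 4389 with 1 library left out (4389 without p300(core) IL1RN replicate 2), and 0 without normalization, under quantile normalization, with a pseudocount of 4, a minimum of 10 libraries, a 5 kb window, -log10 q of at least 20, the replicate block or canonical starts.

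For RNAPII, 1307 genes higher became 229 without normalization and 2296 with array weights (855 to 1933 with 1 library left out). The 1694 lower became 8540 without normalization, 805 with a minimum of 10 libraries and 3396 with array weights (842 to 2928). Of the 9 genes 0 were called, 2 without normalization, 1 with array weights (IRF7, 0.23, adjusted p = 0.0208 by limma), and 0 to 1 with 1 library left out (IRF7 without p300(core) IL1RN replicate 1, 0.29, adjusted p = 0.00925). Signs turned at MX1 (-0.19 without normalization, -0.92 at -log10 q of at least 20, -0.14 without p300(core) Pool 1 replicate 2, -0.13 without VP16(10x) IL1RN replicate 1, and up to 0.58 with another library left out), IRF7 (-0.46 without normalization) and ISG15 (0.15 at canonical starts). The gRNA test with VP16(10x), 64 genes, gave 99 under quantile normalization, 235 with array weights and 54 to 392 with 1 library left out (392 without VP16(10x) Pool 2 replicate 2). With p300(core), 6 genes, it gave 0 under quantile normalization or a minimum of 10 libraries, 13 in a 1 kb and 10 in a 5 kb window, 17 at -log10 q of at least 20, 18 with array weights and 0 to 842 with 1 library left out (842 without p300(core) IL1RN replicate 2). The number with a peak in at least 50% of libraries was 2 to 3, and in no library 4 to 6, with 1 library left out. The run block could not be fitted to the RNAPII construct comparison. The cause of these changes was not tested. In H3K27ac, replicates 1 of IL1RN and Pools 1 to 3 carried a run identifier in both constructs and replicates 2 did not, so the number goes partly with the identifier there. The replicate block changed no call among the 9 genes. Peaks without read counts limit each value to what passed the caller's threshold.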
